A study of Mus musculus with 5 samples.

Results

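Haematopoietic cytokine receptors are the surface proteins through which blood-forming cells read growth factors. The set described here holds 9 genes chosen by symbol, Kit, Flt3, Csf1r, Tek, Epor, Csf3r, Csf2rb, Il3ra and Il7r, out of 33894 named genes in the deposited tables. The choice went by gene name and not by a measured value, but earlier results of these data were known when it was made. All 9 passed the filter on low counts, which left 13696 genes for testing.

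The libraries are bulk RNA sequencing of mouse bone marrow stem cells, sorted for Sca1 and high c-Kit without lineage markers, surface CD34 or Flt3. There were 2 libraries from wild type mice (WT) and 3 from mice labelled doubly deficient (dKO) for the Wnt co-receptors Lrp5 and Lrp6, all 8 weeks of age, each made from RNA of 6K cells. The dKO mice carry Vav-cre together with Lrp5 fl/fl and with Lrp6 fl/fl, so that Cre under Vav regulatory elements acts in blood cells and the floxed copies of both genes are its targets. The WT label names no Cre and no floxed allele, so Cre itself and the loss of both genes cannot be told apart, and neither strain nor whether each library was 1 mouse or a pool is given in the sources used here. P-values therefore measure only the spread between these libraries, which may be technical.

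The set joins a pair of families. Kit, Flt3 and Csf1r are receptor tyrosine kinases of the platelet-derived growth factor receptor type, for stem cell factor, Flt3 ligand and macrophage colony-stimulating factor, and Tek (Tie2) is the tyrosine kinase that binds angiopoietins. Epor, Csf3r, Csf2rb, Il3ra and Il7r have no kinase of their own and signal through bound Jak kinases to Stat factors. They serve erythropoietin, granulocyte colony-stimulating factor, interleukin-3 with its relatives, and interleukin-7. In haematopoietic stem cells Kit signalling supports maintenance, Tek has been linked to quiescence, and Flt3 and Il7r are known for multipotent and lymphoid progenitors.

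Library totals ran from 16028512 to 28027458 counts, so that 3 counts, the limit used for a gene without any, correspond to 0.111 to 0.181 CPM, the count scaled by library size. The dKO replicate 2 library was the shallowest and it resembled its nearest library least, with a correlation over genes of 0.851 where the rest reached at least 0.906. Lrp6 and Lrp5, the targeted genes, had log2 fold changes of 0.51 and 0.83 in the libraries labelled dKO, so neither was lower there with all libraries. Without WT replicate 2 the value of Lrp6 was -0.04, and that of Lrp5, on 2 to 71 counts, ran from -0.05 to 2.34 over the libraries left out. A count over a whole gene does not show the loss of 1 exon. Directions below therefore follow the labels alone. All 10 stem cell markers passed the filter, and their summed level was 841 and 543 CPM in WT replicates 1 and 2 and 1089.7, 1110.1 and 1262 CPM in dKO replicates 1, 2 and 3. Summed granulocyte progenitor markers stood at 45198 CPM in WT replicate 2 and at 7419 to 16938 CPM in the other 4 libraries. In such bulk samples fewer cells of a type and less RNA per cell cannot be told apart.

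The stretches of 250 bases before the transcription start of Kit, Flt3 and Csf3r are shown because these were the 3 most abundant receptors. They come from RefSeq on GRCm38.p6, in which 7 of the 9 members had an entry. Capitals mark matches on either strand to 1 of 7 short motifs. The letters searched were AGATAA for factors of the Gata family, CTTTGA for the Wnt pathway factors Tcf and Lef, TGTGGT for the Runx family, GAGGAA for the myeloid factor Pu.1 and its relatives, CGGAAG for other Ets factors, TTCNNNGAA for the Stat family, and CAGNTG for factors that bind an E-box. Matches to different motifs may overlap.
Kit (chr5:75574737-75574986, forward strand): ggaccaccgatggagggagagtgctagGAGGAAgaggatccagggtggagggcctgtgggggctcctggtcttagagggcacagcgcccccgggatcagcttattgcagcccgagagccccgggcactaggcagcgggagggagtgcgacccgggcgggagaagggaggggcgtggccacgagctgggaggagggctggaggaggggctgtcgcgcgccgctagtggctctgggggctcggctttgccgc
Flt3 (chr5:147400490-147400739, reverse strand): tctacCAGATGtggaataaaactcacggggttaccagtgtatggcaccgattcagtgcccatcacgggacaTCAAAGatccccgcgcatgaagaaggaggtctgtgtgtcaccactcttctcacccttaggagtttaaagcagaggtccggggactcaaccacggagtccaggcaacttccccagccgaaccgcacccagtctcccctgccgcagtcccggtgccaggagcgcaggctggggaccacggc
Csf3r (chr4:126024409-126024658, forward strand): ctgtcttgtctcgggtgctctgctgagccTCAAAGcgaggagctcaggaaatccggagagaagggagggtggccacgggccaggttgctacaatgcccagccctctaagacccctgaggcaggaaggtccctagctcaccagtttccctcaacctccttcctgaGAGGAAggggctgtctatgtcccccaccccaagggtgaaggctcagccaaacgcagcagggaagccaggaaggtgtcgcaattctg
The Kit window held 1 match, to GAGGAA, and was rich in G and C at 70.8%, against a median of 52% over 27025 promoters. The Flt3 window held 1 match to CTTTGA, the letters bound by the factors at the end of the Wnt pathway, and 1 to CAGNTG. That of Csf3r held 1 match to CTTTGA and 1 to GAGGAA. Across all promoters 14% of windows held CTTTGA, 23.1% GAGGAA and 44.5% CAGNTG, so these letters are common, and a match describes the sequence only.

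Receptor levels spanned a wide range in all 5 libraries. On the deposited TPM scale (abundance scaled by gene length and library size) Kit had the highest median at 187, followed by Flt3 at 157 and Csf3r at 128. These 3 genes made up 83.7% to 91.2% of the summed TPM of the set in each library. Kit exceeded Flt3 in 5 of 5 libraries, whereas Flt3 exceeded Csf3r in only 2 of 5, and the ranges of both pairs overlapped. A gap followed, since every value of Csf3r lay above every value of Csf2rb, whose median was 20.4 TPM. Tek (13.8) and Il3ra (13.5) did not differ beyond their spread, with Tek the higher in 2 of 5 libraries. Csf1r followed at 8.08, Epor at 4.26 and Il7r at 1.19 TPM, with ranges that overlapped between neighbours, although Il3ra exceeded Csf1r and Csf1r exceeded Epor in 5 of 5 libraries.

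**Figure D1:**
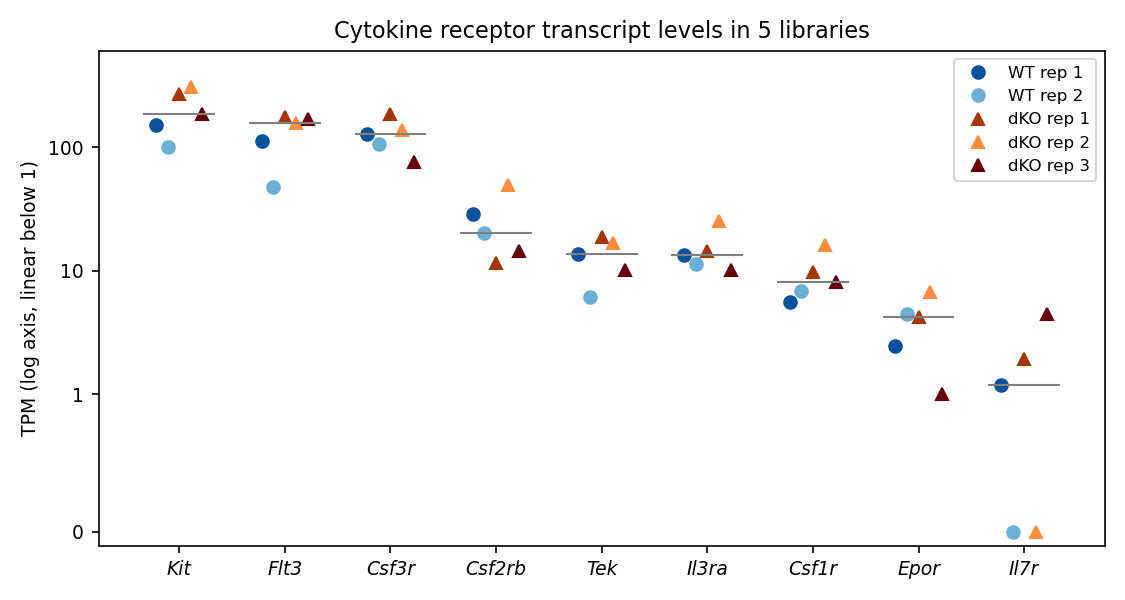
TPM of the 9 receptor genes (y axis, log above 1 and linear below) in each library (circles WT, triangles dKO), with a grey line at the median of the 5 libraries. Kit, Flt3 and Csf3r have the 3 highest medians, the lowest Flt3 point (WT replicate 2, 47.1) lies just under the highest Csf2rb point (dKO replicate 2, 49.0), and Il7r is listed at 0 in WT replicate 2 and dKO replicate 2.

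The comparison of dKO with WT libraries asks whether these receptors differed between the groups as labelled. Kit and Flt3 were the 2 receptors whose CPM was higher in every dKO library than in every WT library, and neither passed the adjusted threshold by edgeR, while Kit passed it by DESeq2. The quasi-likelihood test of edgeR, adjusted over all genes by the Benjamini-Hochberg method, gave 0 of 9 members an adjusted p under 0.05, and 0 of 13696 genes (0%). Of the members 7 had a positive and 2 a negative log2 fold change with a median of 0.47, against a median of 0.04 and 52.2% positive among all tested genes. An unadjusted p under 0.05 was reached by 2 members, both higher, while among all genes 677 reached it higher (4.94%) and 711 lower (5.19%), or 10.1% in either direction. Every dKO value lay above every WT value for 2 of 9 members and for 1879 genes (13.7%). For 0 members and for 2142 genes (15.6%) every dKO value lay below, so that 29.4% of all genes had groups without overlap.

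Kit, the stem cell factor receptor on which the sort gate rests, measured 441 and 347 CPM in WT replicates 1 and 2 and 699, 842 and 572 CPM in dKO replicates 1, 2 and 3. The groups did not overlap, with the 2 WT libraries lowest. The log2 fold change was 0.84 (SE 0.23, 95% interval 0.31 to 1.36, unadjusted p = 0.00633, adjusted p = 0.434 by edgeR), from a mean of 394 ± 66.0 CPM in WT (SD, n = 2) to 704 ± 135 CPM in dKO (SD, n = 3). DESeq2 called 335 of 13759 genes (2.43%), 222 higher (1.61%) and 113 lower (0.821%). It gave Kit an adjusted p of 0.0467, and called no other member. Cells of both groups were gated on high c-Kit protein.

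Flt3, the receptor whose surface protein the gate excluded, was nevertheless among the 3 most abundant receptor transcripts of the set. It measured 238 and 116 CPM in WT and 338, 300.0 and 359.5 CPM in dKO. The 3 dKO libraries lay close together while WT replicate 2 stood below every other library. The log2 fold change was 0.91 (SE 0.30, 95% interval 0.20 to 1.61, adjusted p = 0.441 by edgeR), the dKO mean being 333 ± 30.2 CPM (SD, n = 3) and the WT mean 177 ± 85.9 CPM (SD, n = 2). Leaving out WT replicate 2 gave 0.48 for Flt3 and 0.67 for Kit, and leaving out WT replicate 1 gave 1.51 and 1.01. WT replicate 2 was also the library lowest in summed stem cell markers and highest in granulocyte progenitor markers, whose part in the result was not tested. Of the other gate genes, Cd34 had a log2 fold change of 0.02 and Ly6a, which encodes Sca1, of -0.03.

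**Figure D2:**
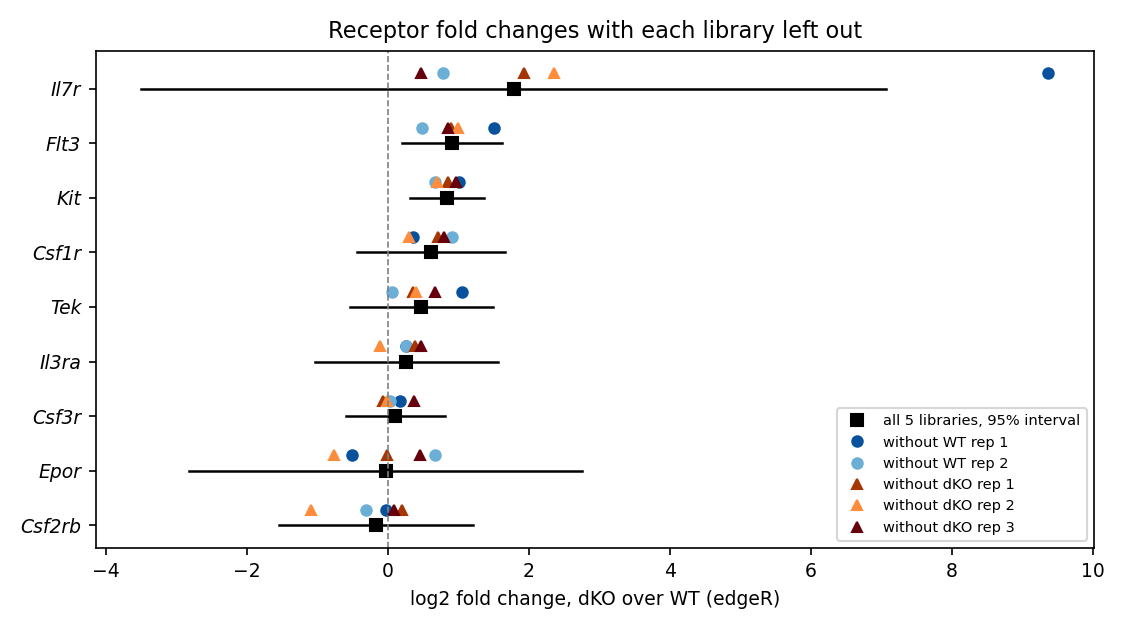
Log2 fold change of each receptor, dKO over WT, by edgeR (black squares, bars giving the 95% interval) with the value when each library is left out (coloured symbols). The intervals of Kit and Flt3 lie above 0 without adjustment, while those of the other 7 genes span 0.

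Csf1r, the receptor of macrophage colony-stimulating factor and of interleukin-34, measured 14.4 and 21.0 CPM in WT and 23.4, 37.6 and 19.9 CPM in dKO. The groups overlapped in CPM through dKO replicate 3, whereas in TPM all 3 dKO libraries (9.80, 16.1 and 8.08) lay above both WT libraries (5.55 and 6.81). The log2 fold change was 0.61 (95% interval -0.44 to 1.66, adjusted p = 0.724 by edgeR), or 0.30 with dKO replicate 2 left out. In GENCODE M21, 15.1% of the exon bases of Csf1r overlap exons of Hmgxb3 on the opposite strand. Smart-seq2 in its standard form does not mark strand, so reads from that stretch could belong to either gene. Hmgxb3 itself was at 10.7 to 15.8 CPM. Of the monocyte and macrophage markers 8 of 9 passed the filter. Their sum was 738 and 659 CPM in WT and 895 to 1024 CPM in dKO. It was highest in dKO replicate 2, as Csf1r was. Of the WT libraries, replicate 1 had the higher sum and the lower Csf1r. Most of the sum was Lyz2, at 575 and 488 CPM in WT and 692, 693 and 691 CPM in dKO. Ccr2 was highest in dKO replicate 2 (199.7 CPM), while Irf8 (48.3 CPM) and Cd14 (3.44 CPM) were lowest there of the dKO libraries. The part of these markers in the Csf1r values was not tested.

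Tek measured 33.1 and 16.5 CPM in WT and 40.4, 38.6 and 24.5 CPM in dKO, with overlapping groups. Its log2 fold change was 0.47 (95% interval -0.54 to 1.49, adjusted p = 0.795 by edgeR). With WT replicate 2 left out it was 0.05, and with WT replicate 1 left out 1.05, so the size rested on which WT library was kept. Its relative Tie1, an angiopoietin co-receptor, was at 37.4 and 34.1 CPM in WT and at 87.2, 124 and 46.8 CPM in dKO, a log2 fold change of 1.27 (adjusted p = 0.437 by edgeR). Angpt1, the ligand of Tek, was itself abundant in the sorted cells at 462 and 249.9 CPM in WT and 521, 619.8 and 613 CPM in dKO. Its log2 fold change was 0.72 (adjusted p = 0.462 by edgeR) with 0.33 when WT replicate 2 was left out. Every dKO library exceeded every WT library for Tie1 and for Angpt1, and not for Tek. Summed endothelial and stromal markers, of which 5 of 7 passed the filter, were 33.6 to 38.1 CPM in WT and 32.0 to 63.1 CPM in dKO. The stromal marker Lepr had 0 counts in every library. Cxcl12, another stromal marker, was at 0.114 and 1.002 CPM in WT and 9.14, 14.9 and 1.41 CPM in dKO, without overlap (adjusted p = 0.466 by edgeR). Of the 5 tested markers 3 had a positive and 2 a negative log2 fold change. Cxcl12 was the 1 with every dKO library above every WT library, against 13.7% of all tested genes. The endothelial marker Emcn had -0.24, with overlapping groups. The part of these markers in the Tek values was not tested.

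Among the receptors that use Jak kinases none had separate groups. Csf3r, which carries the granulocyte signal, measured 223 and 201 CPM in WT and 279.5, 265 and 139.7 CPM in dKO. Its log2 fold change was 0.10 (95% interval -0.60 to 0.81, adjusted p = 0.959 by edgeR), and the 3 dKO values spread on both sides of the WT pair. In WT replicate 2, the library highest in granulocyte progenitor transcripts, Csf3r was lower than in 3 of the other 4 libraries. A processed pseudogene, AC105061.2, matches Csf3r at 96.8% identity over 1518 bases, so reads of Csf3r could have been split.

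Csf2rb encodes the beta chain shared by the receptors of interleukin-3, interleukin-5 and granulocyte-macrophage colony-stimulating factor. It measured 78.6 and 64.7 CPM in WT and 27.0, 125 and 39.8 CPM in dKO. The dKO libraries held both the lowest value and the highest, and the log2 fold change was -0.17 (adjusted p = 0.967 by edgeR, 95% interval -1.55 to 1.21). It was -1.10 without dKO replicate 2. Csf2rb2, its mouse-specific twin used for interleukin-3 alone, aligned to Csf2rb at 95.1% identity over 3108 bases, so reads could have been assigned to the wrong copy. Csf2rb exceeded Csf2rb2 by 6.26-fold to 16.5-fold in TPM, and the sum of both had a log2 fold change of -0.16.

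The alpha chains Il3ra and Csf2ra, used with Csf2rb, also had overlapping groups. Il3ra, which gives the receptor its interleukin-3 specificity, measured 11.2 and 11.1 CPM in WT and 11.2, 19.6 and 9.41 CPM in dKO. All libraries but dKO replicate 2 lay within a narrow band, and the log2 fold change was 0.26 (95% interval -1.04 to 1.56, adjusted p = 0.939 by edgeR) and -0.11 without that library. Csf2ra, the chain for granulocyte-macrophage colony-stimulating factor, measured 38.2 and 94.99 CPM in WT and 52.1, 58.3 and 54.2 CPM in dKO, highest in WT replicate 2. Its log2 fold change was -0.28 (adjusted p = 0.890 by edgeR), or 0.52 with that library left out. In TPM it exceeded Il3ra in all 5 libraries, by 2.34-fold to 6.64-fold. Il5ra exceeded 1 CPM in 2 libraries, WT replicate 1 at 3.84 and dKO replicate 3 at 6.11 CPM.

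Epor, the erythropoietin receptor, was low and variable. It measured 2.39 and 5.45 CPM in WT and 3.80, 6.95 and 0.778 CPM in dKO, resting on 21 to 136 counts. Its log2 fold change was -0.03 (adjusted p = 0.999 by edgeR, 95% interval -2.82 to 2.75), so differences of several-fold either way were not detectable with these libraries. Summed erythroid markers, of which 9 of 10 passed the filter, were 130 and 392 CPM in WT and 225 to 256 CPM in dKO, but 293 CPM of the WT replicate 2 sum was Tfrc, the transferrin receptor. Of the 9 tested markers 7 had a positive log2 fold change (median 1.46). Car1, an erythroid carbonic anhydrase, was at 6.57 and 6.45 CPM in WT and 69.9, 58.2 and 62.7 CPM in dKO (adjusted p = 0.178 by edgeR, 2.94e-24 by DESeq2). Rhag, a red cell membrane protein, was at 0.342 and 0.0801 CPM in WT and 7.52, 11.1 and 3.82 CPM in dKO (adjusted p = 0.430 by edgeR, 0.000186 by DESeq2). Their part in the Epor values was not tested.

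Il7r, the interleukin-7 receptor of lymphoid progenitors, was the lowest and most uneven member. Its counts were 53 and 0 in the WT libraries, then 74, 1 and 206 in dKO replicates 1, 2 and 3. WT replicate 2 and dKO replicate 2 lay at or near 0, and dKO replicate 3 stood highest at 7.63 CPM, so the split ran through both groups. Its log2 fold change was 1.78 (adjusted p = 0.875 by edgeR, 95% interval -3.50 to 7.07). Fits that leave out 1 library gave 0.48 to 9.37, the highest where the only WT library left had no count, which depends on the prior count. Il2rg, the common gamma chain that completes the receptor, was abundant throughout at 179.7 to 306 CPM. Summed B lineage markers, of which 9 of 11 passed the filter, were 176 and 117 CPM in WT and 137, 311 and 385 CPM in dKO. The sum was highest in dKO replicate 3, as Il7r was, and lowest in WT replicate 2, where Il7r had 0 counts. It was 311 CPM in dKO replicate 2, where Il7r had 1 count. Of the 9 tested markers 7 had a positive and 2 a negative log2 fold change (median 1.44). At an unadjusted p under 0.05 by edgeR 4 of these markers were higher, against 4.94% of all tested genes. Their part in the Il7r values was not tested.

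**Figure D3:**
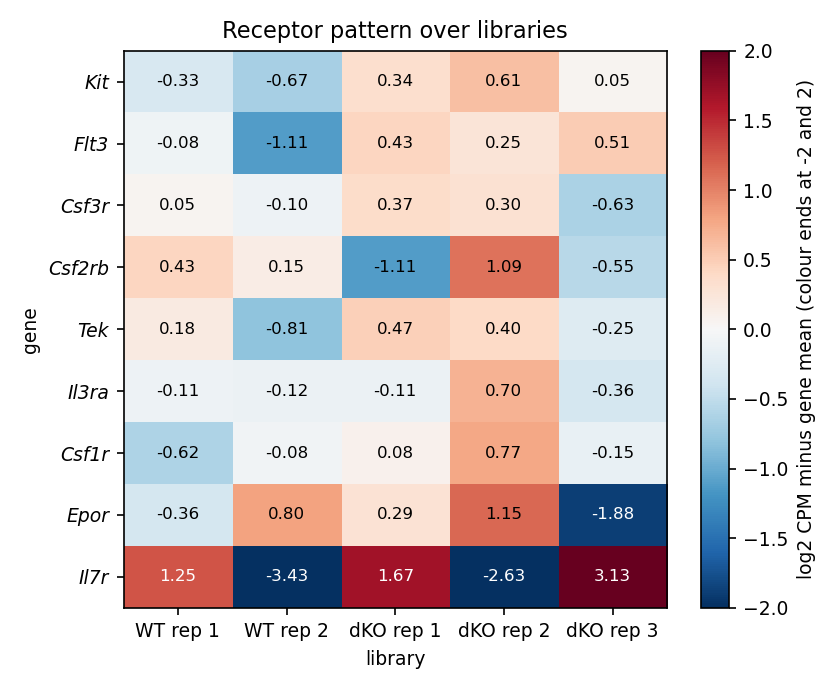
Log2 CPM of each receptor minus its mean over the 5 libraries (rows genes, columns libraries, values printed in the cells). WT replicate 2 is lowest for Kit, Flt3 and Tek, dKO replicate 2 is highest for Kit, Epor, Csf1r, Csf2rb and Il3ra, and Il7r swings widest, from -3.43 to 3.13.

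The receptors also varied between libraries of a group. In CPM dKO replicate 2 gave the highest value for 5 of 9 members, and WT replicate 2 the lowest for 4. Summed mast cell and basophil markers, of which 8 of 9 passed the filter, were 219 and 680.3 CPM in WT. In dKO they were 413, 1089 and 524 CPM, highest in dKO replicate 2 like Kit, Csf2rb and Il3ra. The next highest sum was in WT replicate 2, where Kit was lowest (347 CPM). Of the 8 tested markers 6 had a positive and 2 a negative log2 fold change. At an unadjusted p under 0.05 by edgeR 5 were higher, against 4.94% of all tested genes. Among these 5 was Prss34, with 489 CPM in dKO replicate 2, while Tpsab1 had 0 counts in every library. Mast cells are known for Kit, and both mast cells and basophils for the interleukin-3 receptor. The part of these cells in the receptor values was not tested. The 3 members with the widest spread over the 5 libraries were Il7r, Epor and Csf2rb. Closest to Il7r, by the root mean square difference of centred log2 CPM over 5 libraries, were Ahr (0.35), Clec14a (0.38) and Icos (0.40). Closest to Epor were Pstpip2 (0.11), Ube4a (0.20) and Apex2 (0.23), and closest to Csf2rb were Hpse (0.10) and Vegfb (0.19). Within 0.5 of the pattern lay 11 genes for Il7r, 80 for Epor and 211 for Csf2rb, so such likeness over 5 libraries is a description of shape.

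Of the 14 ligand genes 5 had no count. Epo, Csf2, Csf3, Il3 and Thpo had 0 counts in every library, which allows at most 0.111 to 0.181 CPM per library for counting error alone. For Epo the deposited TPM was nevertheless 0.229 in dKO replicate 2, so count and TPM did not match there. Kitl, the Kit ligand, had 73 counts in dKO replicate 2 and at most 1 elsewhere, and Il34 had 128 counts there and at most 1 elsewhere. Csf1 was at 2.32 to 3.85 CPM in 4 libraries and had 0 counts in dKO replicate 2. Il7 was detected in all libraries at 3.94 to 9.55 CPM. For Flt3l there were 3 and 38 counts in the WT libraries, then 99, 71 and 47 in the dKO libraries, but its count and its TPM did not match, since TPM per CPM varied 13.2-fold between libraries against at most 1.59-fold for the 8 members with a value in every library. Flt3l shares 22.1% of its exon bases with another gene model on the same strand, and its values are uncertain. Of the 6 ligand genes tested 4 had a positive log2 fold change, with a median of 0.08 (-0.09 without dKO replicate 3 and 0.46 without WT replicate 2), and 0 passed the adjusted threshold by edgeR.

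**Figure D4:**
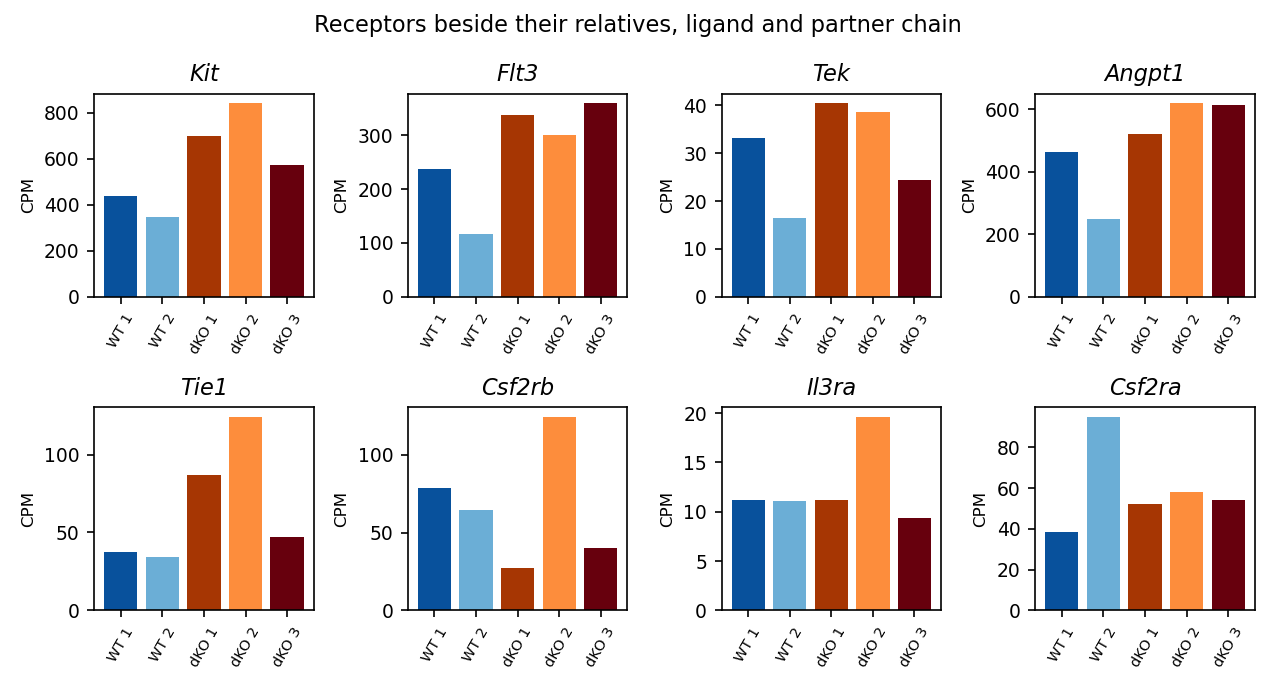
CPM in each library (bars) of 5 members of the set, Kit, Flt3, Tek, Csf2rb and Il3ra, beside Tie1, the Tek ligand Angpt1 and the alpha chain Csf2ra. All 3 dKO bars exceed both WT bars for Kit, Flt3, Angpt1 and Tie1, and not for Tek, Csf2rb, Il3ra or Csf2ra.

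Downstream of the receptors, 10 of 11 Jak and Stat genes had a positive log2 fold change (median 0.30, against 0.04 for all tested genes), and 0 passed the adjusted threshold by edgeR. Stat5a, a main relay of Kit and interleukin-3 receptors, measured 65.0 and 55.2 CPM in WT and 122, 99.5 and 92.5 CPM in dKO, a log2 fold change of 0.80 (adjusted p = 0.436 by edgeR). Jak2, the kinase bound to Epor and Csf2rb, was lowest in WT replicate 2 (7.65 CPM) and highest in dKO replicate 2 (62.2 CPM). Jak3, the partner of Il2rg, and Jak1 had log2 fold changes of 0.68 and 0.30, with overlapping groups. Leaving out WT replicate 2 gave the list a median of 0.16, and leaving out WT replicate 1 a median of 0.54.

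Adaptors and effectors of receptor tyrosine kinases had 19 of 26 genes with a positive value (median 0.29), and 0 passed the adjusted threshold by edgeR. At an unadjusted p under 0.05 by edgeR 3 of the 26 were higher, against 4.94% of all tested genes. These 3 were Pik3cd, the leukocyte catalytic subunit of phosphatidylinositol 3-kinase (1.42), Plcg1 (0.93) and the adaptor Crk (0.88). Vav1 was the fourth by p with 0.40. Of the inhibitors of receptor signalling 13 of 24 were positive (median 0.14) and 0 past the adjusted threshold by edgeR. Without WT replicate 1, 21 of 24 were positive (median 0.39), and on log2 TPM 18 of 24 (median 0.41 with a pseudocount of 1). Socs5 (1.26), the lipid phosphatase Inpp5d (1.05), Pias3 (1.37) and the ubiquitin ligase Cbl (1.34), which marks Kit and Flt3 for degradation, had its smallest p-values.

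Stat5 target genes had 9 of 12 positive values (median 0.12) and 0 past the adjusted threshold by edgeR. The survival factor Mcl1 (0.75), Socs3 (0.81) and Osm (0.62) were on the positive side, and the kinase Pim1 was on the other at -1.57, with 94.3 and 85.3 CPM in WT and 69.9, 13.4 and 6.97 CPM in dKO. Every dKO library lay above every WT library for 4 of the 12, Mcl1, Socs3 and Osm among them, against 13.7% of all tested genes. Pim1 alone had every dKO library below, against 15.6% of all tested genes. Of transcription factors known for controlling receptor genes, 8 of 12 had a positive value (median 0.13) and 0 passed by edgeR. Gata2 (1.202), Ebf1 (3.99), Klf1 (2.06) and Runx1 (0.39) had the smallest p-values. The groups of Klf1 and Runx1 overlapped. Klf1 had 163 and 4 counts in WT, and its value ran from 1.10 to 6.33 over the libraries left out. Ebf1 had 36 and 12 counts in WT. Gata2, which acts on stem cell genes including Kit, measured 82.0 and 48.5 CPM in WT and 145, 185 and 121 CPM in dKO, without overlap (adjusted p = 0.430 by edgeR, 0.0272 by DESeq2). DESeq2 also called Ebf1, with an adjusted p of 0.00469. The median of this list was 0.50 when WT replicate 1 was left out, and 6 of 12 were positive when dKO replicate 3 was.

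Other cytokine and growth factor receptors had 17 of 22 tested genes with a positive value (median 0.44), and 0 passed the adjusted threshold by edgeR. Leaving out dKO replicate 3 gave 12 of 20 positive (median 0.13), leaving out WT replicate 2 gave 15 of 22 (median 0.23), and the fit with the replicate number as a block 11 of 22 (median 0.04). The smallest p-values were those of Il10ra (2.14), Insr (0.96), Ifnar1 (0.52) and Il6st (0.74). Osmr, Lepr and Pdgfra had 0 counts in every library. Of the 7 partner chains and close relatives, 3 were positive and 4 negative (median -0.04, or 0.29 without WT replicate 2), and 0 passed the adjusted threshold by edgeR. The median over the 9 members was 0.30, with 5 of 9 positive, when dKO replicate 2 was left out, and 0.36 to 0.48 with each other library left out in turn.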

How the data were processed

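RNA from 5 sorted libraries was sequenced after Smart-seq2, per the labels' protocols. The deposited files hold raw counts per gene and TPM, as the authors deposited them. Per the submitters' processing notes, the tools were HTSeq, RSEM 1.2.31, TopHat2 2.1.1, Trimmomatic, FastQC 0.11.5 and DESeq2, on build mm9, with no word on which made which values.

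Of 33924 entries per file, 30 name no gene. They held 0.216% to 0.269% of counts and were left out. The test on counts was that of edgeR 4.0.16, run under R 4.3.3 (TMM, filterByExpr with a minimum count of 10, robust quasi-likelihood, all 5 libraries, no covariate, adjusted p under 0.05). CPM is scaled by TMM, and log2 CPM has a prior count of 2. The fits were also run on simulated counts with known changes. Those counts took the spread that edgeR estimated here, so they cannot check that spread. Same-group libraries differed far beyond sampling noise (chi-square per degree of freedom 99.6 to 162). This does not show that they came from separate mice. Each library was counted once in the fits. Alternatives were DESeq2 1.42.0, limma 3.58.1 (voom with quality weights, and log2 TPM with pseudocounts of 1 and 0.1), other scalings and filters, a replicate block, the sum of Csf2rb and Csf2rb2, and each library left out.

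Named genes are the 9 members, their ligands, Csf2ra, Csf2rb2, Lrp5 and Lrp6, up to 4 genes per pathway list by smallest p, and the 3 genes most like each of the 3 members with the widest range. Other names were chosen after their values were seen. A few genes that the rule or the lists hold are not reported here. The members and lists were chosen with earlier results of these data known. Promoter windows are from RefSeq on GRCm38.p6, and gene overlaps and transcript matches (blastn, at least 100 bases and 90% identity) from GENCODE M21 on GRCm38, another build than the files' mm9, so no other coordinates are given.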

Additional observations from a re-analysis of the deposited data

How the results depend on the processing

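No gene passed the adjusted threshold by edgeR in the reported fit (1388 had an unadjusted p under 0.05), by limma-voom, by RLE or upper quartile scaling, or with a filter of 5 CPM in 2 libraries. DESeq2 called 335 genes, the fit without a filter 8, log2 TPM 5 with a pseudocount of 1 and 2 with 0.1. With each library left out in turn, 0 to 5 genes were called. Of 125 alternative values for the members, 115 kept direction and call, 1 gained a call (Kit by DESeq2, adjusted p = 0.0467) and 9 changed sign. Epor was 0.0053 on log2 TPM with a pseudocount of 1 and 0.51 with the replicate block. Over the libraries left out Epor ran from -0.76 to 0.67, Csf2rb from -1.10 to 0.20, Csf3r from -0.0636 to 0.36 and Il3ra from -0.11 to 0.47. The cause was not tested. By voom, which weights libraries by quality, Csf2rb was -0.95 and Il7r 3.65. Epor and Il7r had no value under the 5 CPM filter. Where 1 WT library remained, it is assumed to vary like the others. Without WT replicate 2 the adjusted p by edgeR was 0.9996 for all 9 members. Il7r and Epor rest on few counts, and their intervals limit what can be read from them.

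The libraries share only a replicate number: deviations of same-numbered libraries correlated at 0.03 and 0.05. With the number as a block, dKO replicate 3 has no partner and drops out of the contrast, 1 gene was called, and no member was, Kit having 0.97 and Flt3 0.94, with a median over the 9 members of 0.75.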
